A study of Homo sapiens with 10 samples.

Results

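The comparison described here sets Panc1 cells that received the Δ486 mutant of the transcription factor KLF11 against Panc1 cells that received the empty vector (EV). It takes the 4 arrays of these groups, 2 of each, out of the 10 arrays of the series, and every transcript cluster with a gene symbol was tested. Panc1 is an established line from a human pancreatic ductal carcinoma. All groups were transduced with adenovirus at a multiplicity of infection of 150 and RNA was taken after 48 h, so that EV cells differ from Δ486 cells in carrying a virus without the KLF11 insert. The other 3 groups, which share these conditions, carried wild-type KLF11 (labelled KLF11), the A347S mutant or the EAPP mutant, with 2 arrays each, and appear below only where Δ486 is set beside them. The inserts were tagged and driven by a strong viral promoter, and 1 cell line served for all groups. Each array pair was hybridized from RNA pooled over several cultures according to the study's methods, although the labels call the arrays biological replicates. The p-values therefore measure the spread between arrays, which may be technical.

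KLF11 belongs to the Krüppel-like factors, which bind GC-rich words in promoters through zinc fingers at their C-terminal end and change transcription by recruiting chromatin complexes. KLF11 is known to couple to the Sin3 and histone deacetylase complex, to WD40-domain proteins and to heterochromatin protein 1 (HP1) with its histone methyltransferases. HP1 binds methylated histone H3 and helps to keep chromatin silent. The Δ486 deletion was made to uncouple KLF11 from HP1 and the methyltransferases, A347S from WD40-domain proteins and EAPP from Sin3. The question behind the comparison is which genes the factor still moves when the HP1 arm is uncoupled.

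The values are normalized log2 signals on Human Gene 1.0 ST arrays, on which a transcript cluster gathers the probes of 1 transcribed region. The series holds 28869 clusters, of which 20961 carried at least 1 gene symbol and were tested. The arrays were alike in scale, with median signals of 6.81 to 6.87, and the 2 arrays of a group correlated at 0.9958 for Δ486 and 0.9973 for EV. A cluster was called at a fold of 1.5 or more together with an adjusted p below 0.05 in limma's moderated test. In this comparison the median standard error (SE) of a log2 difference was 0.0954, so a 95% interval reached about 0.214 on either side.

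In Δ486 cells 1176 of the 20961 clusters (5.61%) were called against EV, 499 higher (2.38%) and 677 lower (3.23%). Rises were larger than falls: 123 clusters rose and 62 fell by at least 2-fold, 22 rose and 3 fell by at least 3-fold, and 9 rose and 0 fell by at least 4-fold. The called rises had a median log2 difference of 0.77 and reached 3.22, while the called falls had a median of -0.71 and reached -1.78. Over all clusters the median difference was 0.02. For every called cluster the 2 Δ486 arrays lay entirely above or entirely below the 2 EV arrays, which was also true of 12936 of all 20961 clusters (61.7%). The 2 Δ486 arrays did not carry the rises equally, since array 2 lay farther from EV than array 1 in 423 of the 499 rises (84.8%) and in 337 of the 677 falls (49.8%). Without Δ486 array 2 the counts were 421 higher and 775 lower, and without Δ486 array 1 they were 637 higher and 688 lower. With cyclic loess scaling they were 548 higher and 573 lower, and with quantile scaling 550 higher and 570 lower, so the excess of falls was small under those scalings.

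**Figure D1:**
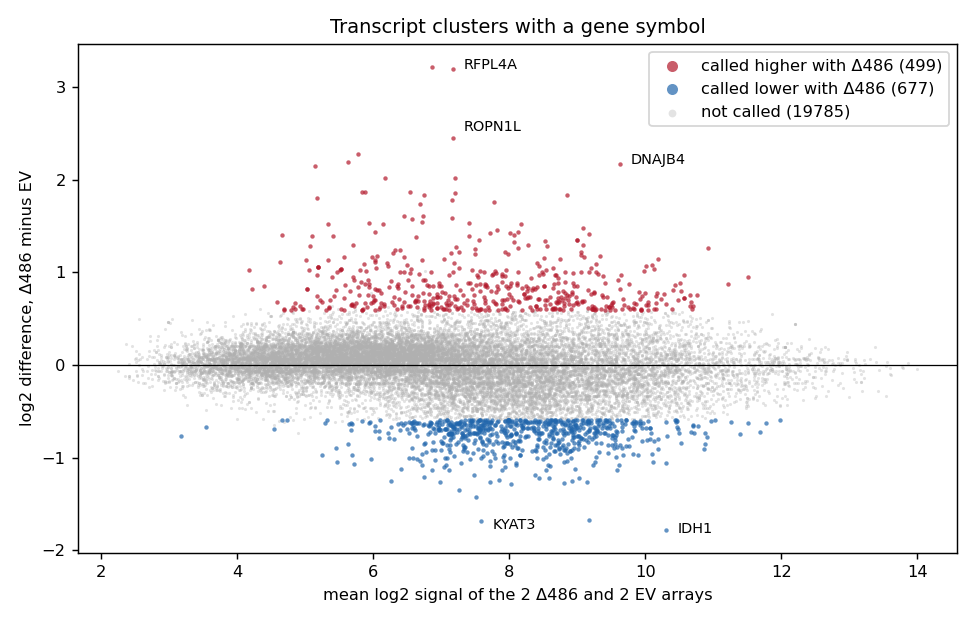
Log2 difference between Δ486 and EV (vertical axis) against the mean log2 signal of the 4 arrays (horizontal axis); each point is 1 transcript cluster with a gene symbol, red for the 499 called higher, blue for the 677 called lower and grey for the rest. Rises extended to 3.22, whereas falls ended at -1.78.

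Calls were rare among dim clusters and their direction changed with signal. When the clusters were split into 5 sets of like size by mean signal, 0.429% were called higher and 0.119% lower in the dimmest set, with signals from 2.27 to 5.16. In the next set rises outnumbered falls, with 1.96% called higher and 0.644% lower. In the 3 brighter sets, from dim to bright, the called rises were 2.58%, 3.53% and 3.41% and the called falls 4.13%, 6.58% and 4.68%. Falls were therefore drawn mostly from genes with middle or high signal in Panc1, and rises also from genes with low signal. The 5.61% over all clusters, given beside gene lists below, pools these 5 sets and is not matched to a list's signal.

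The transduced gene itself was checked first. KLF11 read 8.72 and 8.83 on the Δ486 arrays, against 8.37 and 7.75 on the EV arrays, a difference of 0.71 (SE 0.159, limma adjusted p = 0.0106). The 2 groups did not overlap, but EV array 2 lay well below EV array 1. Without EV array 2 the difference was 0.40, below the fold threshold, and without Δ486 array 2 it was 0.65 with an adjusted p of 0.0579. KLF11 read between 8.68 and 8.88 on the other 6 arrays with a KLF11 insert. The sources used here do not say which part of KLF11 the probes of this cluster cover, so a probe inside the deleted stretch or outside the insert cannot report the transgene and the check says little about its dose.

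Of 13 ductal epithelial markers 1 was called higher and 2 lower with Δ486 (23.1%, against 5.61% over all clusters). At the adjusted p alone 1 marker was higher and 5 lower, against 1901 higher and 2791 lower of all 20961 clusters. The keratins of simple epithelia were bright in both groups: KRT8 averaged 12.35 in Δ486 cells and 12.68 in EV cells, and KRT18 averaged 12.82 in Δ486 cells and 13.17 in EV cells. CFTR, the chloride channel of duct cells, averaged 4.02 with Δ486 and 3.85 with EV, a signal at the dim end of the arrays. In the ductal list KRT19, a keratin of duct cells, and CD24, a surface protein, were called lower (-1.06 and -0.91) and CA2, a carbonic anhydrase, was called higher (1.13). Of the markers of acinar cells, endocrine cells, fibroblasts and leukocytes (11, 9, 11 and 11 measured), 0 were called in either direction. The mean signal of these 4 lists lay between 5.31 and 5.96 on the Δ486 arrays and between 5.24 and 5.78 on the EV arrays. Without Δ486 array 1 or EV array 2, 1 leukocyte marker was called higher, and without EV array 1, 1 fibroblast marker. Log2 signals have no true zero, so absence of these markers was not measured. For every gene below, fewer cells with the transcript and less of it per cell cannot be told apart.

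Largest rises.The gene with the largest rise was RFPL4A, a member of the ret finger protein-like family. It read 8.56 and 8.98 on the Δ486 arrays, against 5.49 and 5.65 on the EV arrays, a log2 difference of 3.20 (SE 0.193, adjusted p = 4.02e-05), or 9.22-fold. A further RFPL4A cluster rose by 3.22, and since the family holds near-identical copies the copy behind the signal is uncertain. ROPN1L, a ropporin-like protein of the sperm and ciliary axoneme, read 8.35 and 8.44 with Δ486, against 5.81 and 6.10 with EV, a difference of 2.45 (SE 0.112, adjusted p = 1.87e-05). In both genes all Δ486 arrays lay more than 2 log2 units above all EV arrays.

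The promoters of these 2 genes and of the 2 genes with the largest falls are shown because these genes had the largest differences in each direction and their promoters differ in the GC-box words CCCCGC and CCCCAC, to which KLF11 is known to bind. Each line gives the 250 bases before the annotated start, 5′ to 3′ on the gene's strand, from RefSeq on GRCh38.p14, with any match of either word on either strand in capitals.
RFPL4A, chr19:55758847-55759096, plus strand: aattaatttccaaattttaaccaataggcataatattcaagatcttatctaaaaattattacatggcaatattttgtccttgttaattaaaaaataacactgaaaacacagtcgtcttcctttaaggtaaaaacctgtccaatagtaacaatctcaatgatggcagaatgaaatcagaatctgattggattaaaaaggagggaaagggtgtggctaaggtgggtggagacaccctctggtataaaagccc
ROPN1L, chr5:10441629-10441878, plus strand: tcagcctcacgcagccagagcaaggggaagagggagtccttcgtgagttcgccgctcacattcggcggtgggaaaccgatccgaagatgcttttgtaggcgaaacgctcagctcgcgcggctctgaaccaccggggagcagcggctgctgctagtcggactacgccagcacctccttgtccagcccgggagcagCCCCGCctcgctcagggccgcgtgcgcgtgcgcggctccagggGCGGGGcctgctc
IDH1, chr2:208254459-208254708, minus strand: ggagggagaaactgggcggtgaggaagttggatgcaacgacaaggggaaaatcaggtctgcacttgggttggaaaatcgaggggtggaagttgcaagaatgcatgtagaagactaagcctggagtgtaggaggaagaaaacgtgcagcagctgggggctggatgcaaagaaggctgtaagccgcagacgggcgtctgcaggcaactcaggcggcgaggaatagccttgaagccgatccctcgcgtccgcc
KYAT3, chr1:88992630-88992879, minus strand: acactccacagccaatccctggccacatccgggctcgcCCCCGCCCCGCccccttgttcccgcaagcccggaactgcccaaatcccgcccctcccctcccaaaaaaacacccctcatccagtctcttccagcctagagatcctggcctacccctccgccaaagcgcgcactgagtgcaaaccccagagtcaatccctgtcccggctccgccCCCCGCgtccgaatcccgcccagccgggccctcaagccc
The RFPL4A window held 0 matches and had a GC content of 33.6%, and the ROPN1L window held 2 matches, 1 on each strand, at a GC content of 68.0%. The IDH1 window held 0 matches at 56.8% GC, and the KYAT3 window held 3 matches, all on the printed strand, at 67.6% GC. A match describes letters only, and its absence says only that the word is not in this window.

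Genes of varied roles followed among the rises. DNAJB4, a co-chaperone of the heat shock protein 40 family, was already bright and read 10.60 and 10.82 with Δ486, against 8.51 and 8.58 with EV (difference 2.17, adjusted p = 4.03e-05). RADX, which binds single-stranded DNA, averaged 7.19 with Δ486 and 5.17 with EV (2.02). KIAA0825 read 6.74 and 7.10 with Δ486, against 4.63 and 4.66 with EV (2.28). HMGN5, a nucleosome-binding protein, rose by 1.87. SIRT4, a sirtuin of mitochondria, rose by 1.84. SLC39A8, a zinc and manganese importer, rose by 1.78 and averaged 8.06 with Δ486 and 6.27 with EV. As in every cluster called higher, each of these genes was higher on both Δ486 arrays than on both EV arrays.

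**Figure D2:**
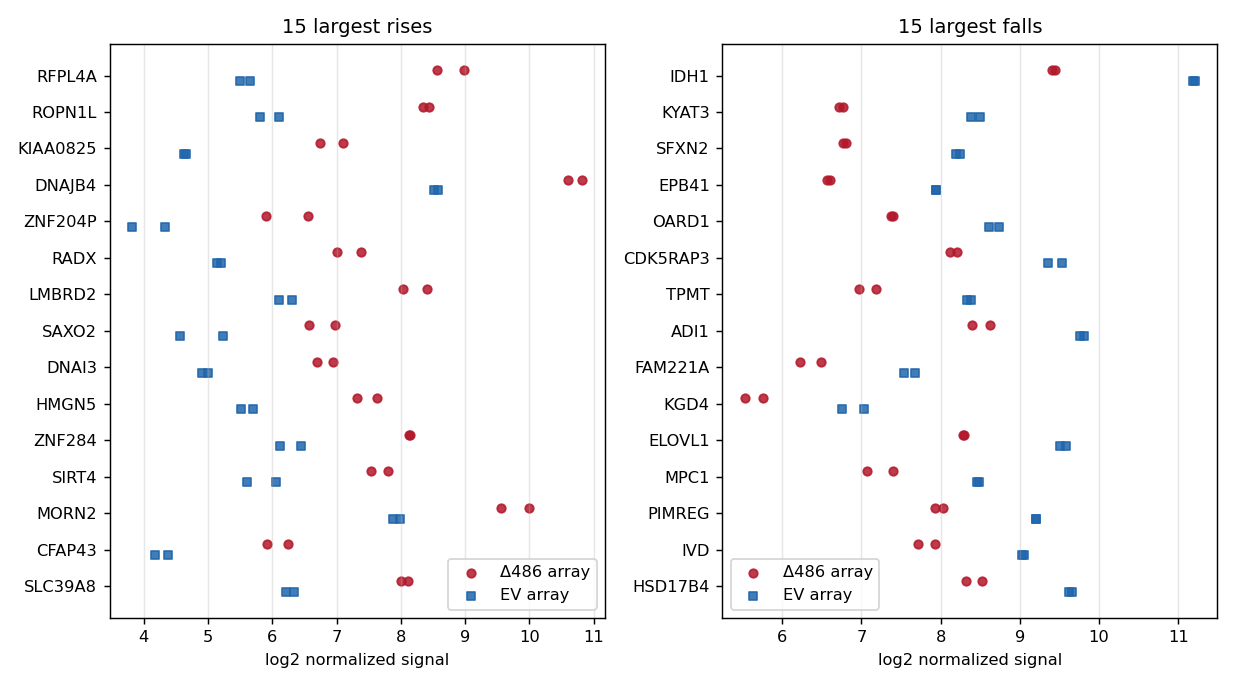
Log2 normalized signal (horizontal axis) of the 15 genes with the largest called rises (left) and the 15 with the largest called falls (right); red circles are the 2 Δ486 arrays and blue squares the 2 EV arrays. The 30 genes were picked among called clusters whose groups do not overlap. They run from RFPL4A (8.56 and 8.98 with Δ486, 5.49 and 5.65 with EV) to HSD17B4 (8.32 and 8.52 with Δ486, 9.66 and 9.62 with EV).

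Metabolic enzymes and mitochondrial carriers were among the genes with the largest falls. IDH1, the cytosolic isocitrate dehydrogenase that makes NADPH, read 9.40 and 9.44 on the Δ486 arrays, against 11.21 and 11.19 on the EV arrays (difference -1.78, SE 0.0849, adjusted p = 1.87e-05). KYAT3, an aminotransferase of kynurenine, read 6.72 and 6.77 with Δ486, against 8.50 and 8.38 with EV (-1.69, adjusted p = 2.01e-05). SFXN2, a carrier-like protein of the mitochondrial membrane, read 6.81 and 6.77 with Δ486, against 8.25 and 8.20 with EV (-1.43). The arrays within a group lay close together in these genes. Among the rest were EPB41 (-1.35), a protein of the membrane skeleton, TPMT (-1.27), which methylates thiopurine drugs, OARD1 (-1.29), which removes ADP-ribose from proteins, and CDK5RAP3 (-1.28), a cofactor of UFM1 conjugation. A cluster shared by CBS, which joins homocysteine to serine, and LOC102724560 fell by 1.68, but its probes match both symbols and it is not counted as a gene.

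Among genes of the axoneme, the microtubule core of motile cilia and flagella, all calls were rises, although most members were not called. Of 88 measured members of the axoneme and ciliary assembly list, 13 were called higher and 0 lower, a share of 14.8% against 5.61% over all tested clusters, and the median difference was 0.15 against 0.02. The called members covered several parts of the axoneme. DNAI3, an intermediate chain of inner-arm dynein, averaged 6.82 with Δ486 and 4.95 with EV (difference 1.87, adjusted p = 6.41e-05). SAXO2, a stabilizer of axonemal microtubules, read 6.57 and 6.98 with Δ486, against 4.57 and 5.24 with EV (1.87). CFAP43, a cilia and flagella associated protein needed for sperm tails, read 5.91 and 6.25 with Δ486, against 4.17 and 4.37 with EV (1.80). In these 3 genes, as in every cluster called higher, both Δ486 arrays lay above both EV arrays.

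CFAP69 rose by 1.52, DNAAF11, an assembly factor of dynein arms, by 1.14, DRC9 and DRC3, subunits of the nexin-dynein regulatory complex, by 1.10 and 0.91, and CFAP44 by 1.09. CFAP206 and CFAP300 rose by 0.81 and 0.79. RSPH4A, a radial spoke head protein, rose by 0.67 but by 0.55 without EV array 1. CFAP251 rose by 0.68 but was lost without EV array 2 (0.43, adjusted p = 0.0779) or without Δ486 array 2 (0.59, adjusted p = 0.0724). The list's members were dim in Panc1, with a median signal of 5.71 in Δ486 cells and 5.40 in EV cells. Among all clusters with mean signals of 5.16 to 6.30, 1.96% were called higher and 0.644% lower, so falls were seldom called at such signals. The remaining 75 members were not called, among them the outer-arm dynein heavy chain DNAH5 (-0.27).

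By the fold and adjusted p together, genes of the machinery that Δ486 was made to uncouple were called at about the share of all clusters. Of 33 measured genes of HP1 proteins and of the enzymes that write or erase methylation of histone H3, 1 was called higher and 1 lower (6.06% against 5.61% over all clusters), with a median difference of -0.14. At the adjusted p alone, 2 of the 33 were higher and 10 lower, against 1901 higher and 2791 lower of all 20961 clusters. By that measure falls were more frequent in this list than over all clusters. The list's median signal was 8.48 in Δ486 cells and 8.67 in EV cells. Among clusters with mean signals of 7.40 to 8.77, 3.53% were called higher and 6.58% lower by the fold and adjusted p together. Those falls alone exceeded the 6.06% of this list, so its share lay below that of clusters of like signal. CBX5, which encodes HP1α, read 10.63 and 10.77 with Δ486, against 10.79 and 10.89 with EV (difference -0.14, adjusted p = 0.291). SUV39H1, a methyltransferase, read 8.05 and 7.86 with Δ486, against 8.26 and 8.31 with EV (-0.33, adjusted p = 0.0221). EHMT2, which encodes G9a, read 7.53 and 7.52 with Δ486, against 7.98 and 8.09 with EV (-0.51, adjusted p = 0.00245). Both methyltransferases passed the adjusted p without reaching the fold threshold. The gene called higher was KDM4D, a demethylase, at 6.40 and 6.33 with Δ486, against 5.76 and 5.57 with EV (0.70). The gene called lower was MPHOSPH8 (-0.61), which reads the mark in the HUSH complex, and its difference was -0.54, under the fold threshold, without Δ486 array 2. It was also under that threshold with cyclic loess (-0.55) and quantile scaling (-0.53). Without Δ486 array 1 or EV array 2, 2 members were called higher.

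Of 23 genes of the Sin3 complex, 0 were called higher and 3 lower (13%, against 5.61% over all clusters). ING2, a reader of active chromatin, read 7.48 and 7.81 with Δ486, against 8.54 and 8.49 with EV (-0.87, adjusted p = 0.000599). HDAC1, a deacetylase, and KDM5B, a demethylase, fell by 0.59 and 0.60, and both were under the fold threshold without Δ486 array 2 (-0.54 and -0.56). KDM5B was so without EV array 1 as well (-0.57). Both were also under it with cyclic loess (HDAC1 -0.57, KDM5B -0.54) and quantile scaling (HDAC1 -0.57, KDM5B -0.53), and 1 member was called higher without Δ486 array 1. The list's median was -0.05.

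Within the KLF and SP family itself, 1 of 25 measured genes was called higher, KLF11, and 5 were called lower (24%, against 5.61% over all clusters). The 24% includes KLF11, the transduced gene itself, whose call was lost without EV array 2 or Δ486 array 2. SP1, the general activator of GC-box promoters, read 8.63 and 8.47 with Δ486, against 9.52 and 9.40 with EV (difference -0.91, SE 0.140, adjusted p = 0.00169). KLF10, the closest relative of KLF11 and like it induced by TGFβ, read 7.70 and 7.65 with Δ486, against 8.48 and 8.52 with EV (-0.83, adjusted p = 0.000239). KLF12 read 5.20 and 5.45 with Δ486, against 6.06 and 6.00 with EV (-0.70), and its difference was -0.58 without Δ486 array 1. KLF3 and KLF6 fell by 0.65 and 0.66, and the difference of KLF6 was -0.57 without EV array 2. The other 19 members were not called, and the list's median was 0.11.

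**Figure D3:**
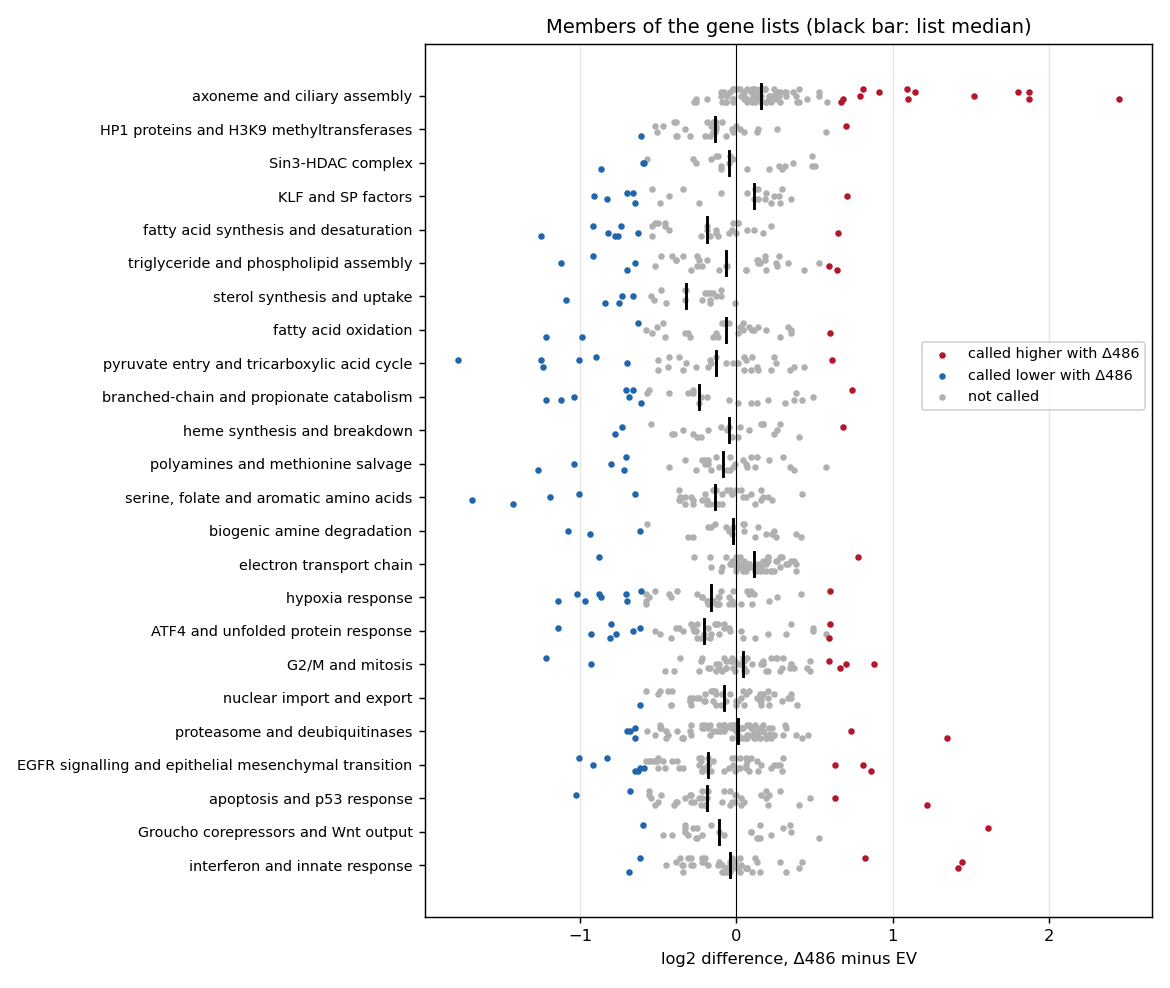
Log2 difference between Δ486 and EV (horizontal axis) of the members of 24 gene lists (rows); red points were called higher, blue points lower, grey points neither, and the black bar is the list's median. All 13 called axoneme genes lie to the right, and all 5 called sterol genes to the left, where the list's median is -0.32.

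Genes of lipid synthesis were called lower more often than higher. Of 32 genes of fatty acid synthesis and desaturation, 1 was called higher and 7 lower, against 5.61% called over all clusters, with a median of -0.19. ELOVL1, an elongase of very long chain fatty acids, read 8.28 and 8.30 with Δ486, against 9.58 and 9.51 with EV (-1.25, adjusted p = 4.02e-05). FASN, the fatty acid synthase, read 8.62 and 8.52 with Δ486, against 9.39 and 9.30 with EV (-0.78). ACACA, the acetyl-CoA carboxylase that feeds it, read 7.33 and 7.35 with Δ486, against 8.06 and 8.14 with EV (-0.76). As in every called cluster, the 4 arrays of each gene separated without overlap. SLC25A1, the mitochondrial citrate exporter, fell by 0.92, MID1IP1, which activates acetyl-CoA carboxylase, by 0.82, and FADS2, a desaturase, by 0.74. SCD, the main desaturase of saturated fatty acids, fell by 0.63, with a difference of -0.58, under the fold threshold, after quantile scaling. ELOVL7, the member called higher (0.65), was lost without Δ486 array 2 (0.53) or EV array 2 (0.55), and with cyclic loess or quantile scaling (0.58 in both).

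Of 23 measured genes of sterol synthesis and uptake, 0 were called higher and 5 lower (21.7%, against 5.61% over all clusters). In this list 0 genes had a difference above 0, and the median was -0.32 against 0.02 over all clusters. LSS, which closes the sterol ring, read 8.04 and 8.06 with Δ486, against 9.18 and 9.10 with EV (-1.09, adjusted p = 0.000338). ACAT2, which joins acetyl-CoA units for this pathway, read 10.16 and 10.06 with Δ486, against 10.92 and 10.98 with EV (-0.84). DHCR7, the last reductase of cholesterol synthesis, read 10.21 and 10.05 with Δ486, against 10.81 and 10.90 with EV (-0.73). LRP8, a lipoprotein receptor family member, fell by 0.75. TM7SF2, a sterol reductase, fell by 0.66 but had a difference of -0.58 without Δ486 array 2.

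Of 36 genes of triglyceride and phospholipid assembly, 2 were called higher and 4 lower (16.7%, against 5.61% over all clusters), with a median of -0.06. LPIN1, which makes diacylglycerol, read 8.47 and 8.34 with Δ486, against 9.49 and 9.55 with EV (-1.12, adjusted p = 9.29e-05). PCYT2, the committed enzyme of phosphatidylethanolamine synthesis, read 8.51 and 8.42 with Δ486, against 9.45 and 9.31 with EV (-0.92). CHKA, a choline kinase, fell by 0.65, with a difference of -0.56 without Δ486 array 1, and HILPDA, a lipid droplet protein, fell by 0.70, with a difference of -0.52 without Δ486 array 2. The members called higher were GPAM (0.59), which starts glycerolipid synthesis, and ABHD5 (0.64), a lipase activator. Both were under the fold threshold without Δ486 array 2 (0.50 and 0.53), GPAM also without EV array 2 (0.51) and ABHD5 without EV array 1 (0.51). In fatty acid oxidation 1 of 32 genes was called higher and 3 lower (12.5%). HSD17B4, the bifunctional enzyme of peroxisomal oxidation, read 8.32 and 8.52 with Δ486, against 9.66 and 9.62 with EV (-1.22). CPT1A, which carries long chains into mitochondria, read 9.09 and 9.06 with Δ486, against 10.10 and 10.04 with EV (-0.99). CAT, catalase, fell by 0.63 and ETFDH, which passes electrons to ubiquinone, rose by 0.60, and both were under the fold threshold without Δ486 array 2 (-0.57 and 0.52), ETFDH also without EV array 1 (0.55) and CAT with cyclic loess or quantile scaling (-0.57 in both). The oxidation list had a median of -0.06.

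Genes at the entry of carbon into mitochondria and of the tricarboxylic acid cycle gave 1 called rise and 6 called falls among 35, with a median of -0.13. MPC1, through which pyruvate enters mitochondria, read 7.07 and 7.40 with Δ486, against 8.48 and 8.46 with EV (-1.24, adjusted p = 0.000329). KGD4, a small subunit of the oxoglutarate dehydrogenase complex, read 5.53 and 5.76 with Δ486, against 6.76 and 7.03 with EV (-1.25). PDP1, the phosphatase that switches on pyruvate dehydrogenase, read 7.16 and 6.99 with Δ486, against 8.10 and 8.08 with EV (-1.01). With IDH1, the mitochondrial IDH2 also fell, at 9.31 and 9.12 with Δ486, against 10.12 and 10.10 with EV (-0.90). PDHB, a pyruvate dehydrogenase subunit, fell by 0.70. SUCLG1, a subunit of succinyl-CoA synthetase, rose by 0.61, and by 0.55 without Δ486 array 2. Of 58 genes of the electron transport chain, 1 was called higher and 1 lower (3.45%, under the 5.61% of all clusters). In this list 46 genes had a difference above 0, and the median was 0.11. NDUFA5, a subunit of complex I, rose by 0.78, and UCP2, an inner membrane carrier, fell by 0.88.

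Several enzymes of amino acid breakdown fell. Of 27 genes of branched-chain amino acid and propionate catabolism, 1 was called higher and 7 lower (29.6%, against 5.61% over all clusters), with a median of -0.24. IVD, which oxidizes the leucine product isovaleryl-CoA, read 7.93 and 7.72 with Δ486, against 9.03 and 9.05 with EV (-1.22, adjusted p = 8.64e-05). BCAT2, the mitochondrial branched-chain aminotransferase, read 7.47 and 7.34 with Δ486, against 8.45 and 8.44 with EV (-1.04). BDH1, which interconverts ketone bodies, read 5.84 and 5.87 with Δ486, against 7.03 and 6.92 with EV (-1.12). BCKDHB, of the branched-chain ketoacid dehydrogenase, fell by 0.71 and MMUT, the methylmalonyl-CoA mutase, by 0.69. PCCA and PCCB, the propionyl-CoA carboxylase subunits, fell by 0.66 and 0.61. PCCA was lost without EV array 2 (-0.56, adjusted p = 0.0583) or Δ486 array 1 (-0.46), and PCCB without Δ486 array 2 (-0.52) or EV array 2 (-0.58), and with cyclic loess (-0.56) or quantile scaling (-0.58). MCEE, which acts between the carboxylase and the mutase, was called higher at 0.74, with a difference of 0.51 without Δ486 array 2. Without Δ486 array 1, 2 members were called higher.

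The serine, folate and aromatic amino acid list held 0 called rises and 5 called falls among 41 genes (12.2%, against 5.61% over all clusters), with a median of -0.14. Beside KYAT3 and SFXN2 these were SHMT1, the cytosolic serine hydroxymethyltransferase, which read 6.93 and 6.86 with Δ486, against 8.01 and 8.16 with EV (-1.19), ALDH1L2, a mitochondrial formyltetrahydrofolate dehydrogenase (-1.01), and PCBD2 (-0.65). PCBD2 was under the fold threshold without Δ486 array 1 (-0.49) or EV array 2 (-0.56). Of 32 genes of polyamines and methionine salvage, 0 were called higher and 5 lower (15.6%), with a median of -0.09. ADI1 and ENOPH1, which act in methionine salvage, fell by 1.27 and 0.71. MAT2B, a regulatory subunit of S-adenosylmethionine synthesis, read 8.31 and 8.35 with Δ486, against 9.44 and 9.30 with EV (-1.04). ODC1, the first enzyme of polyamine synthesis, read 11.35 and 11.31 with Δ486, against 12.07 and 12.01 with EV (-0.72), and SAT1, which starts polyamine breakdown, fell by 0.80. Without Δ486 array 1, 1 member of this list was called higher. Among 24 genes of amine degradation the 3 calls (12.5%) were falls of aldehyde dehydrogenases, ALDH7A1 (-1.08), ALDH1B1 (-0.94) and ALDH2 (-0.62), the last of which had a difference of -0.58 without EV array 2. In heme metabolism 1 of 25 genes was called higher and 2 lower (12.0%): UROD (0.68) rose, and CPOX (-0.73), the enzyme after it in synthesis, and BLVRA (-0.78), which reduces biliverdin, fell.

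Stress response genes were also called lower more often than higher. Of 44 genes of the hypoxia response 1 was called higher and 8 lower (20.5%, against 5.61% over all clusters), with a median of -0.16. DDIT4, an inhibitor of mTORC1, read 7.98 and 7.96 with Δ486, against 9.11 and 9.11 with EV (-1.14, adjusted p = 0.000130). SLC2A1, the glucose transporter GLUT1, read 8.06 and 7.92 with Δ486, against 8.95 and 9.08 with EV (-1.02). ERO1A, an oxidase of the endoplasmic reticulum, read 9.17 and 9.19 with Δ486, against 10.22 and 10.09 with EV (-0.97). BNIP3, a receptor for mitophagy, fell by 0.88, ALDOC, an aldolase, by 0.87 and PFKL, a phosphofructokinase, by 0.71. BNIP3L (-0.61) was under the fold threshold without Δ486 array 2 (-0.55) or EV array 1 (-0.58), and with cyclic loess (-0.55) or quantile scaling (-0.53). P4HA2 (0.60), a collagen prolyl hydroxylase, was under it without Δ486 array 2 (0.58) or EV array 1 (0.52). HILPDA, described above with lipid assembly, is the remaining fall of this list. Of 45 genes of the ATF4 and unfolded protein response 2 were called higher and 7 lower, with a median of -0.21. PYCR1, the last enzyme of proline synthesis, read 8.43 and 8.44 with Δ486, against 9.33 and 9.39 with EV (-0.93, adjusted p = 9.49e-05). HYOU1, an endoplasmic reticulum chaperone, read 9.35 and 9.34 with Δ486, against 10.15 and 10.14 with EV (-0.80). SLC1A4, a neutral amino acid transporter, fell by 0.81 and NUPR1, a stress-induced regulator, by 0.77. ATF6, the sensor that is cleaved to a transcription factor, rose by 0.59, with differences of 0.54 without Δ486 array 2 and 0.53 without EV array 1. Without EV array 1 no member of this list was called higher. DDIT4 is counted in both lists.

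Growth factor signalling genes moved in both directions. Of 61 genes of EGFR signalling and epithelial-mesenchymal transition 3 were called higher and 7 lower (16.4%, against 5.61% over all clusters), with a median of -0.18. TGFBR1, the type I receptor of TGFβ, read 7.33 and 7.23 with Δ486, against 8.30 and 8.29 with EV (-1.01, adjusted p = 9.29e-05). SMAD2, its effector, read 7.93 and 7.91 with Δ486, against 8.85 and 8.83 with EV (-0.92). TGFB2, a ligand, read 9.55 and 9.57 with Δ486, against 8.74 and 8.77 with EV (0.81). The ligand was higher and its receptor lower with Δ486. HBEGF, an EGFR ligand, rose by 0.86. SPARC, a matrix protein, fell by 0.83, and MYC, the growth regulator, by 0.65, with a difference of -0.58, under the fold threshold, after quantile scaling. FOS, an immediate early factor, rose by 0.63 but was lost without EV array 2 (0.43, adjusted p = 0.0676) or Δ486 array 1 (0.54, adjusted p = 0.0606). Of 27 genes of Groucho corepressors and Wnt output 1 was called higher and 1 lower (7.41%). TLE4, a Groucho corepressor, read 7.36 and 7.16 with Δ486, against 5.58 and 5.72 with EV (1.61, SE 0.144, adjusted p = 0.000154). TCF7L2, a Wnt effector, fell by 0.60, and was under the fold threshold without EV array 2 (-0.56) and with cyclic loess (-0.54) or quantile scaling (-0.53).

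The mitotic list gave 4 called rises and 2 called falls among 58 genes (10.3%, against 5.61% over all clusters), with a median of 0.04. The list was bright, with a median signal of 9.59 in Δ486 cells and 9.43 in EV cells. In the brightest of the 5 sets of clusters 3.41% were called higher and 4.68% lower. KIF20A, a kinesin of the central spindle, read 10.15 and 10.24 with Δ486, against 9.35 and 9.28 with EV (0.88), and NEK2, a centrosome kinase, rose by 0.66. CENPE, a kinetochore motor, rose by 0.70, and by 0.58 without Δ486 array 2. CDC25B, which activates cyclin-dependent kinases, fell by 0.93 and PIMREG, a mitotic regulator, by 1.22, while CDC25C rose by 0.59, with differences of 0.55 without Δ486 array 2 and 0.51 without EV array 1. The list held 2 called rises without Δ486 array 2 and 6 without Δ486 array 1. Of 46 apoptosis and p53 genes 2 were called higher and 2 lower (8.70%). TNFRSF10D, a decoy receptor of TRAIL, read 9.62 and 9.72 with Δ486, against 8.45 and 8.45 with EV (1.22, adjusted p = 8.64e-05). CASP9, the initiator caspase of the mitochondrial route, read 6.42 and 6.37 with Δ486, against 7.47 and 7.39 with EV (-1.03). FAS, a death receptor, rose by 0.63, with differences of 0.54 without Δ486 array 2 and 0.55 without EV array 2. The count of falls in this list was 2 with all arrays, 5 without Δ486 array 2 and 6 without EV array 1, and its median was -0.19.

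Of 50 interferon and innate response genes 3 were called higher and 2 lower (10%), with a median of -0.04. SAMHD1, which degrades nucleotides and restricts viruses, averaged 9.88 with Δ486 and 8.46 with EV (1.42, adjusted p = 9.62e-05). SLFN5 read 6.70 and 6.81 with Δ486, against 5.08 and 5.54 with EV (1.44). HERC5, a ligase for the interferon-induced modifier ISG15, rose by 0.82. Both groups had received adenovirus. Of 93 genes of the proteasome and deubiquitinases 2 were called higher and 4 lower (6.45%, near the 5.61% of all clusters), led by USP30 (1.35), which opposes mitophagy and read 8.17 and 8.29 with Δ486, against 6.82 and 6.93 with EV. Of 52 nuclear transport genes 0 were called higher and 1 lower (1.92%), KPNB1 (-0.62), which carries cargo through nuclear pores and had a difference of -0.57 without Δ486 array 2 and -0.58 with cyclic loess scaling. Without EV array 1, 2 members were called lower.

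Zinc finger genes stood out among the rises when the changes were inspected, and were then counted by name, so this count is a description chosen after the values were seen. Of 479 measured genes whose symbols begin with ZNF, 45 were called higher and 7 lower (10.9% in all, against 5.61% over all clusters), and the median difference was 0.10. The count of falls was 14 without Δ486 array 2 and 4 without EV array 2. ZNF204P, a transcribed pseudogene, read 5.90 and 6.56 with Δ486, against 3.82 and 4.33 with EV (2.15, SE 0.267). ZNF284 read 8.13 and 8.14 with Δ486, against 6.44 and 6.12 with EV (1.86). ZNF214 and ZNF461 rose by 1.61 and 1.53. Many zinc finger genes lie in clusters on chromosome 19 and are similar in sequence, so that probes of relatives may share signal. By chromosome, 42 of 1307 genes on chromosome 19 (3.21%) were called higher and 21 (1.61%) lower. The share called higher was larger on chromosomes 18 (3.79%), 5 (3.38%) and 3 (3.26%). Over all 18377 genes 444 were called higher and 617 lower. On chromosome 1, the largest, 45 of 1859 genes (2.42%) were called higher and 72 (3.87%) lower.

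Promoters of the genes that fell held GC-box words more often than those of the genes that rose. Of 18377 genes, 14208 had a RefSeq promoter window, and CCCCGC or CCCCAC was searched on both strands in the 250 bases before the start. The words were found in 426 of 503 windows of genes called lower (84.7%), in 210 of 382 windows of genes called higher and in 65.7% of all 14208. Among genes that were not called and had a mean signal of at least 5, the share was 70.8%, and over all 27305 windows of the table it was 53.4%. CCCCGC was found in 78.9% of the windows of genes called lower and 43.2% of those of genes called higher, and CCCCAC in 39.4% of the windows of genes called lower and 26.2% of those of genes called higher. Windows of falling genes were also richer in GC, with a median of 70.8% against 60.4% for rising genes and 62.8% for all.

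Compared at like GC content the shares lay closer together. In windows with a GC content from 55 to under 65% the words were in 72.9% of 85 falling genes, 54.5% of 191 rising genes and 66.1% of 3580 genes not called. From 65 to under 75% the shares were 92.5% of 201 falling, 76.5% of 81 rising and 87.2% of 3554 not called. Below 55% they were 32.7%, 32.0% and 33.3% for falling, rising and not called genes, and from 75% upward they were 97.6%, 100% and 96.8%. These shares are descriptions without a test, and genes are not independent replicates.

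**Figure D4:**
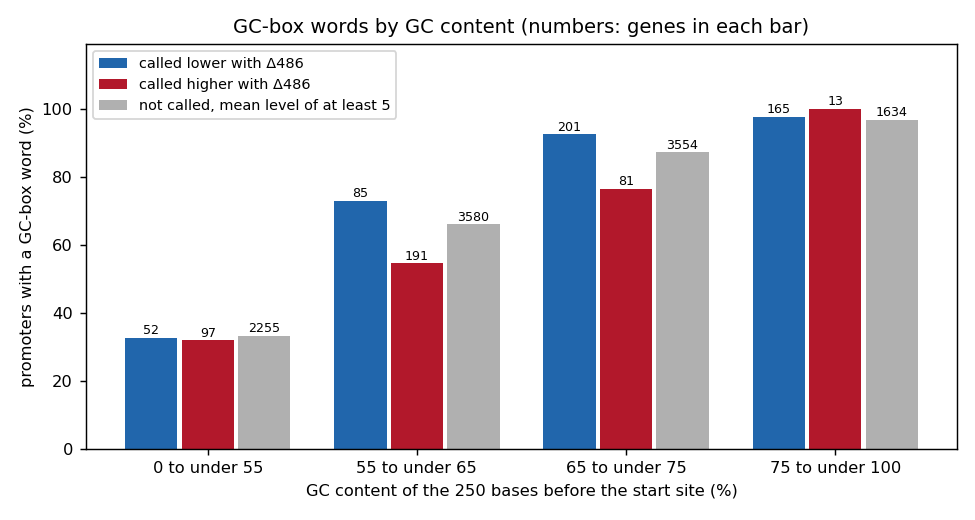
Share of promoters with CCCCGC or CCCCAC on either strand (vertical axis) by the GC content of the 250 bases before the start site (horizontal axis), for genes called lower (blue), called higher (red) and not called with a mean signal of at least 5 (grey); numbers above the bars are genes. Between 55 and 75% GC the red bars (54.5% and 76.5%) are the lowest of each group and the blue bars (72.9% and 92.5%) the highest.

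Set directly against the other constructs, Δ486 had calls only against EAPP. In the direct comparison of Δ486 with KLF11, 0 of 20961 clusters were called (0%) and 2211 had an unadjusted p under 0.05 (10.5%), the smallest adjusted p being 0.0546. In the direct comparison with A347S, 0 were called (0%) and 1557 had an unadjusted p under 0.05 (7.43%), with a smallest adjusted p of 0.157. In the comparison with EAPP, 684 clusters were called (3.26%), 398 higher (1.90%) and 286 lower (1.36%) with Δ486. The balance of rises and falls depended on the array left out: it was 319 higher and 376 lower without Δ486 array 2, 345 higher and 356 lower without EAPP array 2, 530 higher and 318 lower without Δ486 array 1, and 489 higher and 291 lower without EAPP array 1. A count of 0 does not show that Δ486 and KLF11 acted alike, because a typical difference has an interval of 0.214 on either side and the test must pass the adjustment over all clusters.

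All 30 genes with the largest changes were also called in the same direction for KLF11 and A347S against EV, and none was called for EAPP. Over all tested clusters 837 were called for KLF11, 1882 for A347S and 1 for EAPP against EV. The lack of calls for EAPP is therefore not particular to these 30 genes. These differences share the EV arrays, so they are given side by side only. RFPL4A differed from EV by 3.20 with Δ486, 3.05 with KLF11, 3.69 with A347S and 1.38 with EAPP. The direct difference was 0.16 against KLF11 (interval -0.27 to 0.59), -0.49 against A347S (-0.92 to -0.05) and 1.82 against EAPP (1.39 to 2.25, adjusted p = 0.000603). IDH1 differed from EV by -1.78 with Δ486, -1.43 with KLF11, -2.10 with A347S and -0.45 with EAPP. Its direct differences were -0.35 against KLF11 (interval -0.54 to -0.16, adjusted p = 0.321), 0.32 against A347S (0.13 to 0.51, adjusted p = 0.642) and -1.33 against EAPP (-1.52 to -1.14, adjusted p = 0.000119). BDH1 differed from EV by -1.12 with Δ486 and by 1.19 with EAPP, and read 5.84 and 5.87 with Δ486, against 8.06 and 8.27 with EAPP (direct difference -2.31, interval -2.54 to -2.08, adjusted p = 2.80e-05).

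**Figure D5:**
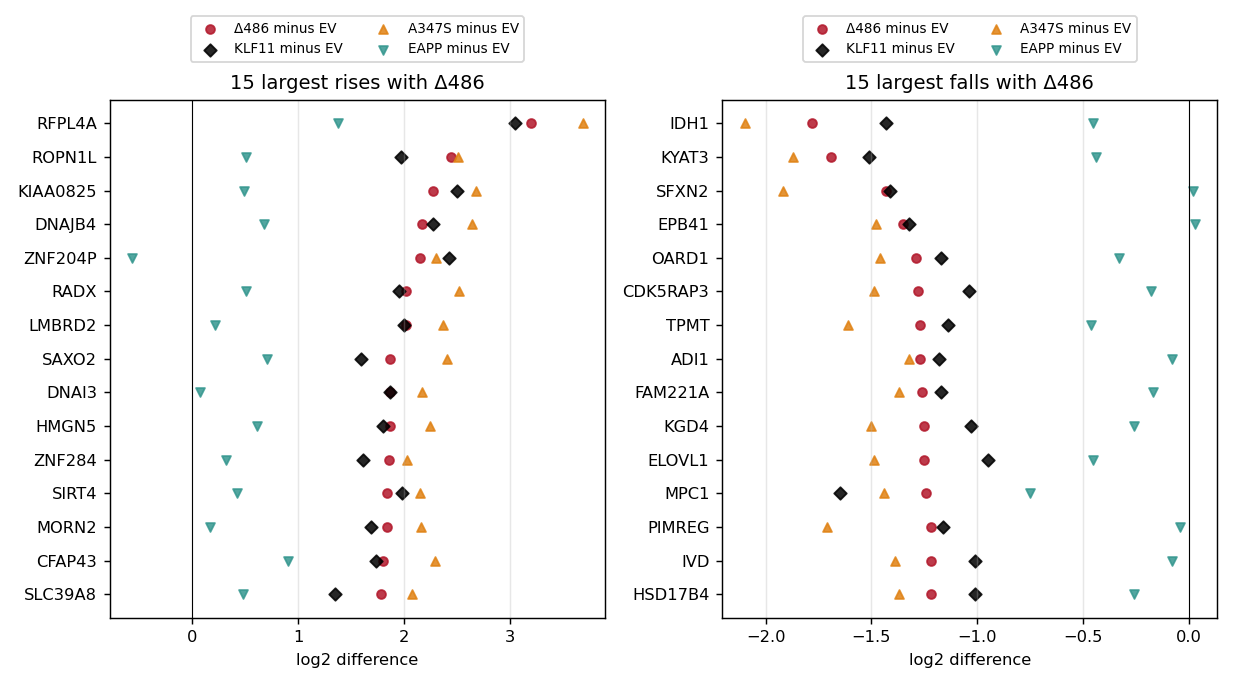
Log2 difference from EV (horizontal axis) of the 15 largest rises (left) and 15 largest falls (right) of Δ486, for Δ486 (red circles), KLF11 (black diamonds), A347S (orange upward triangles) and EAPP (green downward triangles); all differences share the same 2 EV arrays. RFPL4A lies at 3.20, 3.05, 3.69 and 1.38, and IDH1 at -1.78, -1.43, -2.10 and -0.45, in that order.

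A few genes lay apart from wild-type KLF11 without passing the adjusted threshold. CA2 read 6.62 and 6.57 with Δ486, against 5.75 and 5.84 with KLF11, a direct difference of 0.80 (interval 0.62 to 0.98, adjusted p = 0.0546). ACADSB, the short branched-chain acyl-CoA dehydrogenase, read 8.98 and 9.38 with Δ486, against 8.23 and 7.98 with KLF11 (1.07, interval 0.79 to 1.36, adjusted p = 0.0812). CXCR4, a chemokine receptor, read 5.81 and 5.98 with Δ486, against 5.21 and 5.01 with KLF11 (0.79, adjusted p = 0.0812). CALCRL, a receptor of the calcitonin family, was lower, at 6.49 and 6.85 with Δ486, against 7.86 and 7.64 with KLF11 (-1.08, interval -1.41 to -0.75, adjusted p = 0.121). In these 4 genes the Δ486 and KLF11 arrays did not overlap. They were picked among the largest differences from KLF11 with an unadjusted p under 0.05, which favours such separation. TLE4 differed from KLF11 by 0.72 (interval 0.40 to 1.04, adjusted p = 0.248) and from A347S by 0.01 (-0.31 to 0.33). CXCR4 differed from A347S by 0.00 (-0.21 to 0.22). Some single changes of the processing called clusters against KLF11, at most 6, and CA2 was among them under 5 other ways of moderating, scaling or filtering. Without Δ486 array 1, ACADSB was the 1 cluster called (1.27, adjusted p = 0.0482).

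Against EV, 70 clusters were called for Δ486 and neither for KLF11 nor for A347S, 32 higher and 38 lower. Their changes were small: the median size was 0.62 with Δ486, and in the same direction it was 0.36 with KLF11 and 0.49 with A347S. Of the 70, 27 passed the adjusted p with KLF11 and 49 with A347S without the fold. In the direct comparisons 38 of the 70 had an unadjusted p under 0.05 against KLF11 and 23 against A347S, while 0 were called. Over all clusters these shares were 10.5% and 7.43%. The 70 were picked for passing with Δ486 and not with KLF11 or A347S, so the choice itself favours small p-values here. FOXO4 was called against KLF11 under trend and robust moderation (0.66, adjusted p = 0.0453). The larger rises included CDC42EP3, an effector of CDC42, which read 6.70 and 6.86 with Δ486, against 6.02 and 5.89 with EV (0.83, adjusted p = 0.00243), and PIWIL4, an Argonaute family protein of the germ line, at 5.93 and 6.20 with Δ486, against 5.32 and 5.21 with EV (0.80). CDC42EP3 differed from EV by 0.21 with KLF11 and 0.54 with A347S, and PIWIL4 by 0.06 with KLF11 and 0.56 with A347S. Both differences with A347S passed the adjusted p without the fold. FOXO4, a forkhead factor, read 6.67 and 6.79 with Δ486, against 6.03 and 6.01 with EV (0.71, adjusted p = 0.000604), and differed from EV by 0.05 with KLF11 and 0.38 with A347S. Among the falls were GPCPD1, a phosphodiesterase (-0.70), and PHF1, a cofactor of Polycomb repressive complex (-0.68), PHF1 with a difference of -0.53 without Δ486 array 1.

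At the edge of the fold threshold the nearest genes inside were NRGN (0.59) and ASTE1 (0.59) among rises and ADGRE5 (-0.59) and NIBAN2 (-0.59) among falls. The nearest outside, with an adjusted p under 0.05, were SLC27A1 (0.58) and KRABD5 (0.58), and PLOD1 (-0.58) and ITGA2 (-0.58).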

How the data were processed

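RNA from Panc1 cells was hybridized to Human Gene 1.0 ST arrays, 10 arrays in 5 groups of 2. The deposited values are log2 signals per transcript cluster, which the authors made by robust multi-array averaging in Partek 6.6 and which range from 1.85 to 14.56. No probe-level data were used here, and array signals carry no count of molecules, so the number of arrays limits the precision.

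Groups were taken from the labels. limma 3.58.1 (R 4.3.3) fitted a mean for each group to the 10 arrays together, with moderated variances on 5 residual degrees of freedom, and p-values were adjusted by the Benjamini-Hochberg method over the 20961 clusters with a gene symbol. Fold changes are differences of log2 means, intervals are 95% intervals of the moderated test, and every adjusted p in the text is of this kind. Gene symbols came from the platform annotation. A gene was represented by its brightest cluster with 1 symbol, and 18349 of 18377 genes matched RefSeq by gene number. Of 673 genes with several clusters, 42 had a called brightest cluster against EV. In 4 of these another cluster of the gene had a difference of the other sign. The 29 gene lists held 1171 entries, of which 106 had no such cluster. The comparison and the lists were chosen with earlier results of these data known.

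Genes named were drawn from the 15 largest rises and falls among called clusters in which both Δ486 arrays lay beyond both EV arrays. Up to 4 called members of each list with the largest change, and the 5 largest differences each way against each construct, were added. So were the 5 largest each way among clusters called for Δ486 but neither for KLF11 nor for A347S. KLF11, CBX5, SUV39H1 and EHMT2, and the genes next to the fold threshold, complete the rule. Not every gene picked by the rule is named in the text, and none of those picked for the comparison with A347S is. Other members named were chosen after their values were seen. The fit was tested on simulated data. Alternatives were other fold thresholds, tests, scalings and filters, a replicate block and leaving out each array. Tables used Python 3.11.15, pandas 2.3.3, numpy 2.4.6 and matplotlib 3.10.9.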

Additional observations from a re-analysis of the deposited data

Results flagged for a closer look

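Of the 7908 transcript clusters without a gene symbol, which took no part in the tests above, 99 (1.25%) were called in the comparison of Δ486 with EV when all clusters were fitted, 41 higher and 58 lower, with differences from -2.06 to 1.55. They were looked at because they lie outside the named genes. Which transcripts they measure is not given in the annotation used here.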

How the results depend on the processing

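For Δ486 against EV, 1176 clusters were called (499 higher, 677 lower). The count was 32 (29 higher, 3 lower) at an absolute log2 difference of 1.5, 4692 (1901 higher, 2791 lower) with no fold threshold, and 0 (0 higher, 0 lower) with a plain t-test without moderated variances after Benjamini-Hochberg adjustment, where 4909 clusters had an unadjusted p under 0.05. Leaving out 1 array gave 1180 to 1325 calls, cyclic loess scaling 1121 (548 higher, 573 lower) and quantile scaling 1120 (550 higher, 570 lower), and no call of a named gene reversed under any alternative run. Against KLF11, where 0 were called, the count was 6 (5 higher, 1 lower) with trend and robust moderation, 1 (1 higher) with cyclic loess scaling, 2 (2 higher) with quantile scaling, 3 (3 higher) with dim clusters left out, 1 (1 higher) with 1 cluster per gene, and 0 to 1 when 1 array was left out (0 to 1 higher). Against A347S it stayed 0 under each alternative run. Against EAPP, with 684 calls, it was 15 (14 higher, 1 lower) at an absolute log2 difference of 1.5, 3148 (1410 higher, 1738 lower) with no fold threshold and 0 (0 higher, 0 lower) with the plain t-test, where 3503 had an unadjusted p under 0.05; leaving out 1 array gave 695 to 848 calls. Apart from the thresholds themselves and the number of clusters tested, the cause of these moves was not tested. The replicate numbers did not pair the samples (correlation of deviations 0.0523 between EV and Δ486), and with the replicate number as a block 1171 clusters were called against EV (496 higher, 675 lower), 0 against KLF11, 0 against A347S and 677 against EAPP, with no named call lost against EV. Same-numbered arrays deviated oppositely for Δ486 and EAPP (-0.348) and for Δ486 and KLF11 (-0.137), and with the pairing crossed, an alternative added after seeing the data, 685 were called against EAPP and 1 (1 higher) against KLF11. The 2 arrays of a group limit the precision.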
